A study of Homo sapiens with 11 samples.

Results

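The family of ubiquitin-conjugating enzymes whose gene symbols begin with UBE2 was followed in MDA-MB-231 cells after silencing of MASTL. Members were taken by symbol from a platform annotation, updated through the Entrez number. Of 32 symbols beginning with UBE2, 5 pseudogenes and the 2 mitotic genes UBE2C and UBE2S were left out. This gave 25 members of 20046 genes with a named probe: 24 protein-coding genes and UBE2D3-AS1, an antisense RNA that the symbol rule takes in and that encodes no enzyme. The 25 members lay on 16 chromosomes.

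MDA-MB-231 is an established human line of triple-negative breast cancer cells, and MASTL encodes the Greatwall kinase, which restrains the phosphatase PP2A-B55 at mitotic entry. The groups were MASTL siRNA at 24 h (2 arrays), control siRNA at 24 h (3 arrays), MASTL siRNA at 48 h (3 arrays) and control siRNA at 48 h (3 arrays), 11 bead arrays in all. Every group was transfected with Lipofectamine RNAiMAX, and the controls carried the non-targeting AllStars siRNA. MASTL was silenced with 1 siRNA, so an effect of that sequence cannot be told apart from loss of MASTL. Its sequence is shown because it alone sets the MASTL siRNA groups apart from the controls, and it is given as the labels write it, without the strand being stated.
MASTL siRNA: acgccttattctagcaaatta

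Ubiquitin is activated by an E1 enzyme, passed to the catalytic cysteine of an E2, and transferred to a substrate with the help of an E3 ligase. The UBE2 genes encode E2 enzymes, each with its own E3 partners and, in some cases, its own kind of chain. Chains linked through the lysine called K48 mark proteins for the proteasome, and chains linked through K63 serve in DNA repair and signalling. A few E2s carry ubiquitin-like proteins such as NEDD8 and ISG15 instead, and the UBE2V proteins are E2 variants without the catalytic cysteine.

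Values are normalized log2 signals as deposited. A probe was taken as measured where it lay above a noise limit of 7.4071 on at least 2 of the 11 arrays, and a gene was read from its probe of highest mean. Of the 25 members, 24 passed, 23 of them on all 11 arrays; UBE2B passed on 4, and UBE2U, at 7.36 on average and above the limit on 1, was not tested. The probes of UBE2B (7.39) and UBE2R2 (7.53) read close to the limit, where the scale is compressed, so these genes are weakly measured here. Another 10 protein-coding UBE2 genes, among them UBE2D1, UBE2D2, UBE2D3, UBE2L3, UBE2M and UBE2W, had no probe named in the annotation and were not analysed here. Levels are not compared between genes, because probes differ in brightness.

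The labels were checked first. MASTL read 7.61 and 7.69 on the MASTL siRNA arrays at 24 h, against 8.64 to 8.74 on the controls, and 7.53 to 7.67 against 8.41 to 8.72 at 48 h, with no overlap at either time. VIM, CD44, AXL and CAV1 lay between 12.04 and 14.15 on every array, and KRT18 between 7.89 and 8.11. Of 6 genes that tend to be low in such cells, PGR and CDH1 were above the limit on 0 arrays and ESR1 on 1, while GATA3 (7.49 to 7.65), ERBB2 (8.79 to 9.26) and EPCAM (8.98 to 9.60) were above it on all 11. Of 7 markers of leukocytes, endothelium and fibroblasts, PTPRC, CD3E, CDH5 and LUM were above the limit on 0 arrays, DCN on 6, and CD14 and PECAM1 on all 11. At 48 h CD14 read 8.24 to 8.55 under MASTL siRNA and 8.49 to 8.93 in controls, and PECAM1 7.58 to 7.80 under MASTL siRNA and 7.81 to 8.02 in controls. Their part in the results below was not tested. The labels number the replicates without calling them separate cultures, so p-values measure the spread between arrays, which may be technical.

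UBE2G2 was the one member called at either time when replicate numbers were not used, and with the replicate number as a block further members were called, as given below. It encodes an E2 that builds K48 chains on misfolded proteins of the endoplasmic reticulum, in the process called ERAD, among others with the ligase SYVN1. At 24 h it read 9.58 and 9.84 on the MASTL siRNA arrays, against 8.81, 9.07 and 9.09 on the control arrays. At 48 h it read 9.59, 9.62 and 9.67, against 8.91, 9.09 and 9.13. All 5 MASTL siRNA arrays lay above all 6 control arrays. Within a time, groups were apart with MASTL siRNA higher for 13.4% of all features at 24 h and 10.1% at 48 h. The share of features apart over both times together was not computed. The UBE2G2 group means were 9.71 ± 0.18 (SD, n = 2) and 8.99 ± 0.16 (n = 3) at 24 h. At 48 h they were 9.63 ± 0.039 (n = 3) and 9.04 ± 0.12 (n = 3).

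**Figure D1:**
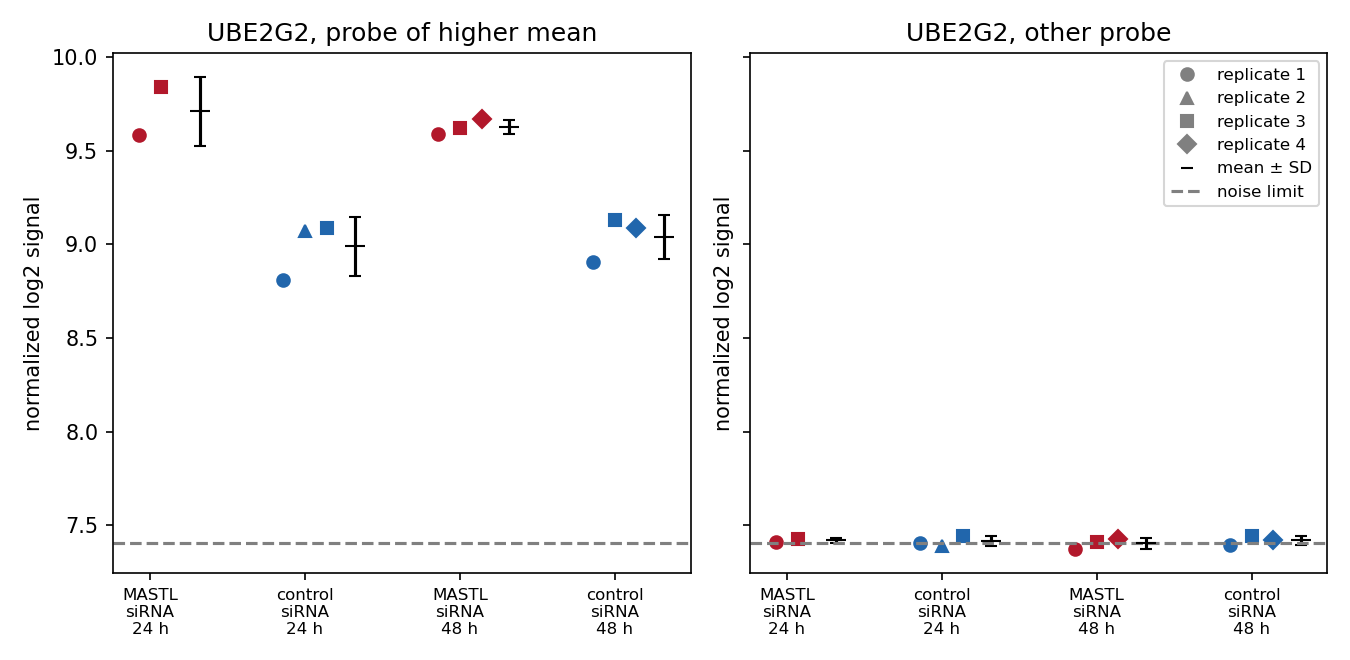
UBE2G2 on each of the 11 arrays (normalized log2 signal, vertical axis) in the 4 groups (horizontal axis), for the probe used (left) and the gene's other probe (right). Symbols mark the replicate number, black bars the mean ± SD and the dashed line the noise limit of 7.4071. On the left the 5 MASTL siRNA arrays sit between 9.58 and 9.84 and the 6 control arrays between 8.81 and 9.13, while on the right all arrays lie near the limit.

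At 24 h UBE2G2 rose by 0.72 on the log2 scale, 1.65-fold (SE 0.11, 95% interval 0.48 to 0.96, limma adjusted p = 0.0183). It was the 1 of 24 members called, where 0.881% of all 22482 features were; it was called higher, as 0.236% of features were, and 0 members were called lower, where 0.645% of features were. At 48 h it rose by 0.59, 1.5-fold (SE 0.094, 95% interval 0.37 to 0.80, adjusted p = 0.0167), again the 1 of 24 members called, where 2.3% of features were. By direction, 1 member was called higher against 1.02% of features and 0 lower against 1.28%. On average over both times the rise was 0.65 (SE 0.071, adjusted p = 0.00143), and UBE2G2 was the 1 of 24 members called, where 4.57% of features were. With 24 members, 1 call at 48 h or on average is near what the background share gives.

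The change in UBE2G2 did not pass a test of difference between the times. The 48 h change minus the 24 h change was -0.14 (95% interval -0.46 to 0.19, adjusted p = 1.0). For that contrast limma called 0 of 22482 features (0.0%), and limma-trend called 0. At an unadjusted p under 0.05 there were 686 features (3.05%), and UBE2B, near the noise limit, was the 1 member among them. With the replicate number as a block within each time, the UBE2G2 difference was -0.18 (SE 0.060, limma adjusted p = 0.448), and 0 features were called. At an unadjusted p under 0.05 that block gave 6 of 24 members, UBE2G2 among them, where 9.56% of features were. Among same-numbered arrays at 24 h, MASTL siRNA minus control was 0.77 and 0.76 for replicates 1 and 3. At 48 h it was 0.68, 0.49 and 0.58 for replicates 1, 3 and 4, so each pair moved the same way. Such agreement of all 3 pairs at 48 h was found for 13 of 24 members and for 44.2% of all features.

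Some UBE2G2 calls were lost when 1 array was left out. The change itself stayed between 0.59 and 0.85 at 24 h and between 0.52 and 0.63 at 48 h. Without MASTL siRNA replicate 3 at 24 h the change was 0.59 and was not called (adjusted p = 0.162). At 48 h the call ended without control replicate 1 (0.52, adjusted p = 0.0636), MASTL siRNA replicate 3 (0.59, adjusted p = 0.0605) or MASTL siRNA replicate 4 (0.565, adjusted p = 0.0613). The average over both times was called without any 1 of the 11 arrays (0.59 to 0.72).

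The result rests on 1 of the 2 UBE2G2 probes. The other, annotated to another transcript accession of the gene, read 7.37 to 7.43 on the MASTL siRNA arrays and 7.39 to 7.44 on the control arrays, above the noise limit on 7 of 11. Its changes were 0.005 at 24 h and -0.016 at 48 h, so at this brightness no difference was detectable with it. With both probes averaged the gene changed by 0.36 at 24 h (adjusted p = 0.0325) and 0.285 at 48 h (adjusted p = 0.0324).

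The other E2s of the endoplasmic reticulum and of K48 chains did not pass the test, with or without a block. For this and the later groups by role, 0.881% of all features were called at 24 h and 2.3% at 48 h without a block. In groups this small, a count of 0 is near those shares. UBE2J1 and UBE2J2 are anchored in the reticulum membrane, UBE2K builds K48 chains, and UBE2G1 and UBE2R2 extend chains on substrates of cullin-RING ligases. Of the 6 genes of this group 1 rose (UBE2G2) and 0 fell at either time, and the group's median was 0.035 at 24 h and 0.113 at 48 h, against 0.0029 and 0.0011 over all features. At 48 h the changes of the other 5 ran from 0.02 (UBE2R2) to 0.16 (UBE2J2, 95% interval -0.09 to 0.41). UBE2K gave 0.13 (95% interval -0.05 to 0.31) and UBE2J1 0.095 (95% interval -0.05 to 0.24). At 24 h UBE2J2 gave -0.09 and UBE2G1 -0.04. A second UBE2G1 probe gave 0.13 at 24 h.

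**Figure D2:**
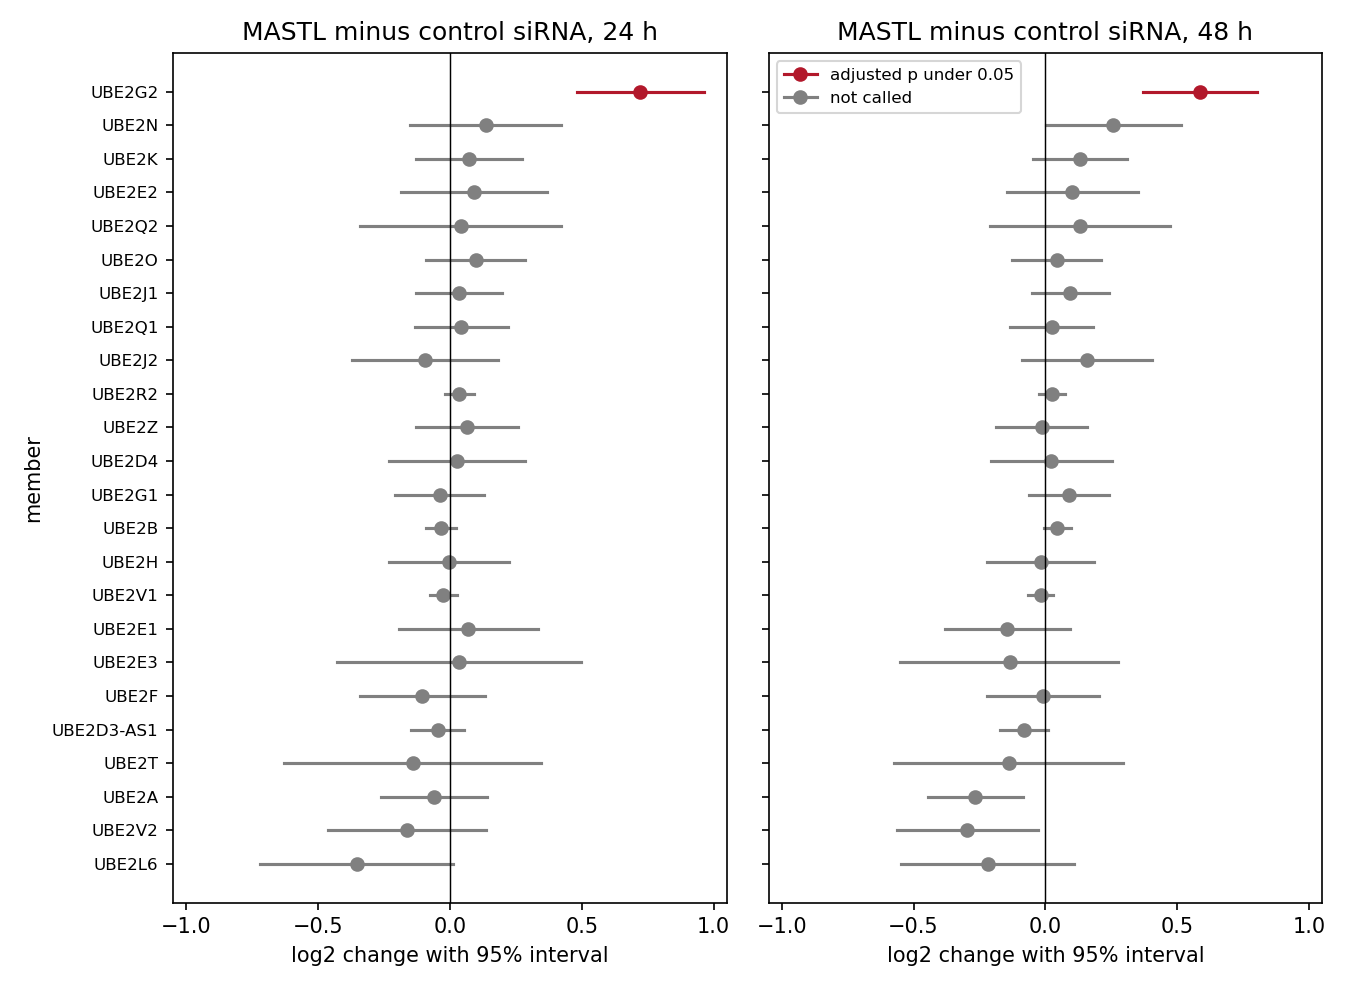
Log2 change under MASTL siRNA relative to control siRNA (horizontal axis) with its 95% interval for each of the 24 tested members (vertical axis, ordered by the average of both times), at 24 h (left) and 48 h (right). Red marks an adjusted p under 0.05 in the fit without a block, which UBE2G2 alone of the 24 reached at each time; all other intervals at 24 h include 0, and at 48 h those of UBE2A and UBE2V2 lie below 0 and that of UBE2N just above it.

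Apart from UBE2G2, each tested member has its own 95% interval, read from the probe used and not adjusted for the number of members. At 24 h the 23 other tested members changed by -0.35 (UBE2L6) to 0.14 (UBE2N), and their 95% intervals reached from -0.72 (UBE2L6) to 0.50 (UBE2E3). At 48 h they changed by -0.30 (UBE2V2) to 0.26 (UBE2N), with intervals from -0.575 (UBE2T) to 0.51 (UBE2N). Of the 24, 13 had a positive and 11 a negative change at each time. The groups did not overlap for 5 members at 24 h (UBE2G2, UBE2K, UBE2R2, UBE2L6 and UBE2D3-AS1), where 25.1% of all features were so separated. At 48 h there were 4 such members (UBE2G2, UBE2N, UBE2A and UBE2V2), against 18.6% of features. Both counts are near those shares.

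At 48 h same-numbered arrays deviated together from their group means, with correlations across features of 0.692, 0.548 and 0.772 for replicates 1, 3 and 4. At 24 h the correlations were lower, 0.104 and 0.469 for replicates 1 and 3. The deviations of the 2 MASTL siRNA arrays at 24 h mirror each other, so these are not separate checks. Differently numbered arrays were not compared in this way. Same-numbered arrays were then also compared as pairs. With the replicate number as a block within each time, 6 of 24 members were called at 48 h, where 12.0% of features were: UBE2G2 and UBE2N higher, against 6.22%, and UBE2A, UBE2V2, UBE2L6 and UBE2E3 lower, against 5.77%. At 24 h this block called 2 of 24 members, where 2.87% of features were: UBE2G2 higher, against 1.07%, and UBE2L6 lower, against 1.81%. The block fit shares an estimate of spread over both times, so its 24 h calls rest also on the 48 h pairs. On average over both times it called 6, where 13.2% of features were: UBE2G2 and UBE2N higher and UBE2A, UBE2V2, UBE2L6 and UBE2T lower. With 1 block per number over all arrays, 2 were called at 48 h, UBE2G2 and UBE2A, where 8.26% of features were. None of these members except UBE2G2 was called without a block.

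**Figure D3:**
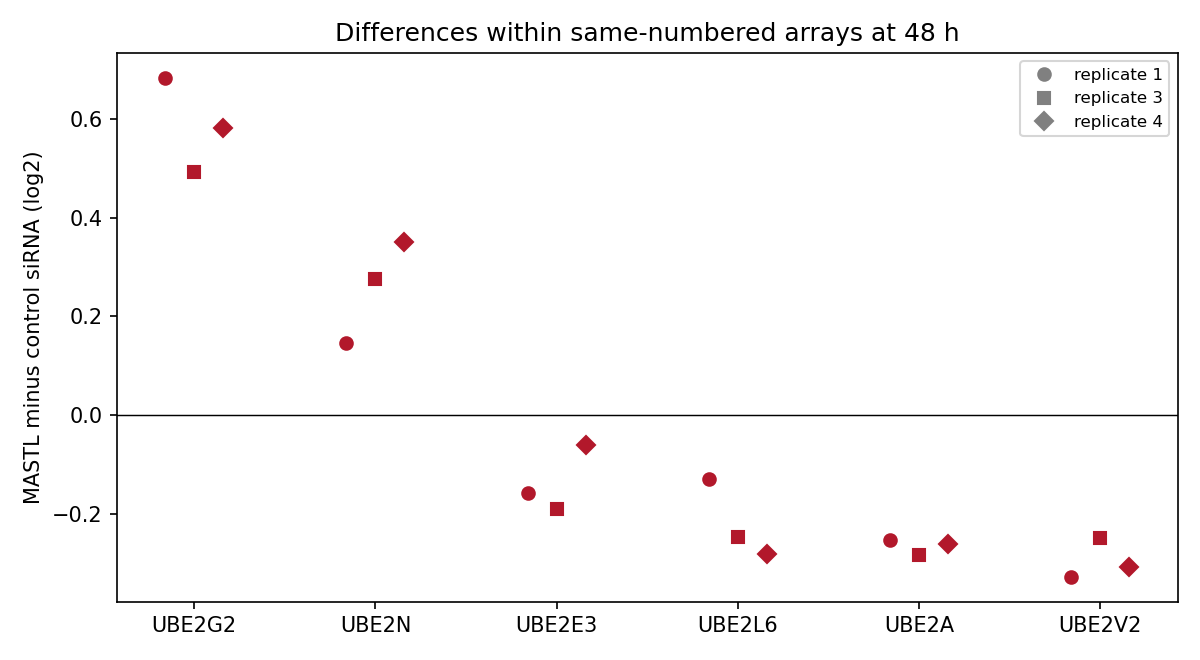
MASTL siRNA minus control siRNA (log2, vertical axis) within each of the 3 same-numbered pairs at 48 h, for the 6 members called at 48 h with the replicate block within each time (horizontal axis). Symbols mark the replicate number. UBE2G2 and UBE2N lie above 0 in all 3 pairs and the others below 0 in all 3. The members were chosen by a fit to these same differences, so their common sign is no separate support. All 3 pairs had 1 sign for 44.2% of all features.

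UBE2A and UBE2B are the human forms of yeast RAD6. With RAD18 they mark the clamp PCNA at stalled replication forks, and with RNF20 and RNF40 they mark histone H2B. UBE2A read 9.99, 10.04 and 10.16 under MASTL siRNA at 48 h, against 10.24, 10.32 and 10.42 in controls, without overlap. The change was -0.27, 1.2-fold lower, with adjusted p = 0.152 without a block, 0.0341 with the block over all arrays and 0.00238 with the block within each time. The 3 pair differences were -0.25, -0.28 and -0.26. At 24 h UBE2A read 10.18 and 10.31 under MASTL siRNA, inside the control range of 10.18 to 10.46. UBE2B changed by -0.035 at 24 h and by 0.045 at 48 h, near the noise limit.

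UBE2N joins with UBE2V1 or UBE2V2 to build K63 chains, and the measured partners differed in sign. UBE2N read 10.14, 10.21 and 10.29 under MASTL siRNA at 48 h, against 9.86, 10.00 and 10.02 in controls. Its change was 0.26 (95% interval 0.001 to 0.51), with adjusted p = 0.359 without a block and 0.0166 with the block within each time. UBE2V2 read 9.31, 9.35 and 9.47, against 9.64, 9.66 and 9.72, a change of -0.30 (95% interval -0.56 to -0.03), with adjusted p = 0.303 and 0.0393. Both genes' groups were apart at 48 h, and at 24 h both overlapped, with changes of 0.14 for UBE2N and -0.16 for UBE2V2. The block within each time, which leaves control replicate 2 (9.39 for UBE2V2) without a partner, gave 0.09 for UBE2N and -0.30 for UBE2V2 at 24 h (adjusted p = 0.131). UBE2V1 changed by -0.025 at 24 h and -0.02 at 48 h. A read-through gene, PEDS1-UBE2V1, has 2 probes of its own (-0.16 and -0.15 at 24 h, -0.12 and -0.05 at 48 h), and which of both transcripts the UBE2V1 probe reads was not tested.

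UBE2T, the E2 of the Fanconi anaemia pathway with the ligase FANCL, spread widely within groups. It read 9.25, 9.66 and 9.84 under MASTL siRNA at 48 h, against 9.45, 9.64 and 10.09 in controls, a change of -0.14 (95% interval -0.575 to 0.30). On average over both times UBE2T gave -0.14 without a block (adjusted p = 0.735) and -0.19 with the block within each time, where it was called lower (adjusted p = 0.0426). In this group for DNA damage, chromatin and K63 chains, 0 of 6 genes rose and 0 fell at either time without a block, with medians of -0.048 and -0.079.

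**Figure D4:**
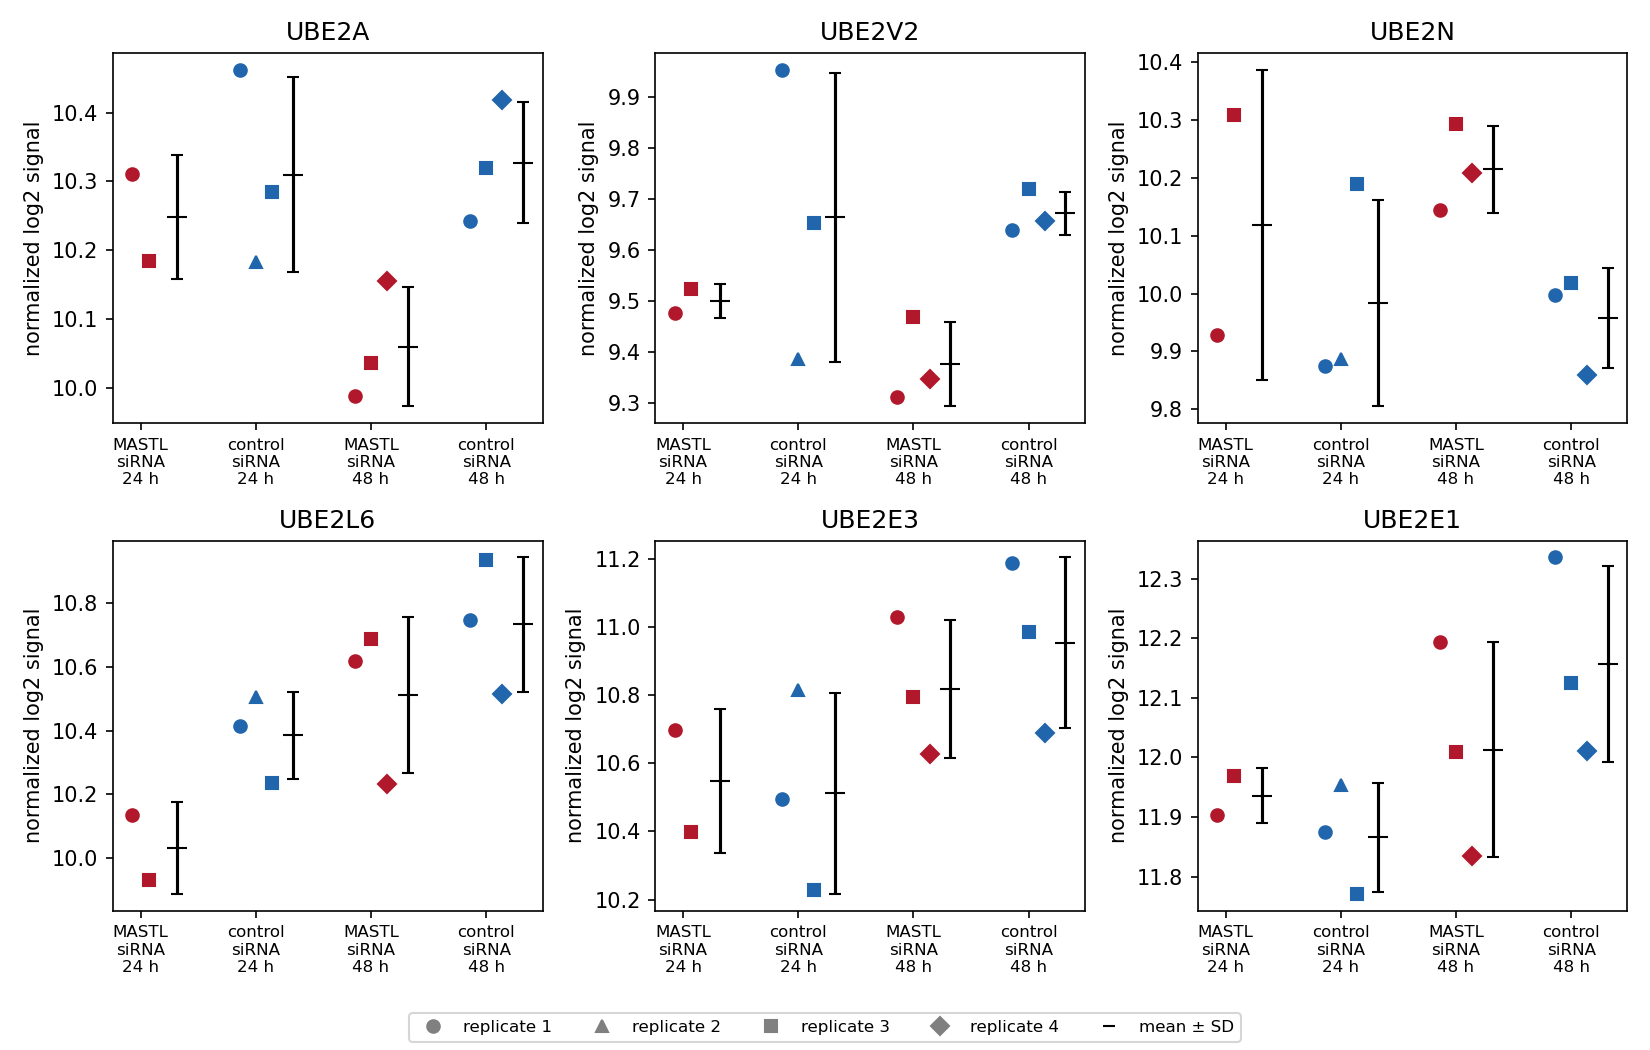
Normalized log2 signal (vertical axes, each with its own range) on the 11 arrays in the 4 groups (horizontal axes) for 6 members. Symbols mark the replicate number and black bars the mean ± SD; UBE2A, UBE2V2 and UBE2N are apart at 48 h, UBE2L6 at 24 h, and UBE2E3 and UBE2E1 overlap at both times.

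Among E2s of ubiquitin-like proteins, UBE2L6, which carries the interferon-induced modifier ISG15, was the most shifted. At 24 h it read 9.93 and 10.13 under MASTL siRNA, against 10.24, 10.42 and 10.51 in controls, a change of -0.35 (95% interval -0.72 to 0.01, adjusted p = 0.578), and -0.29 with the block within each time (adjusted p = 0.0285). At 48 h it read 10.23, 10.62 and 10.69, against 10.52, 10.75 and 10.94, a change of -0.22 (adjusted p = 0.593, and 0.0144 with the block within each time). Without the block that change was -0.08 when MASTL siRNA replicate 4 was left out, -0.12 without control replicate 3 and -0.33 without control replicate 4. The groups were apart at 24 h and overlapped at 48 h, although each of the 3 pairs at 48 h was lower under MASTL siRNA, by -0.13, -0.25 and -0.28. A dimmer UBE2L6 probe gave -0.17 and -0.16. ISG15 itself, named after its values were seen, gave 0.06 at 24 h and 0.72 at 48 h (SE 0.23, adjusted p = 0.177), and was called higher at 48 h only with the block within each time.

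UBE2F, which loads NEDD8 onto the cullin CUL5, gave -0.105 at 24 h (95% interval -0.34 to 0.13) and -0.01 at 48 h. UBE2Z, which takes ubiquitin from the E1 enzyme UBA6, gave 0.065 and -0.01, and a dimmer probe 0.17 and 0.04. In this group, UBE2L6 included, 0 of 3 measured genes rose or fell without a block.

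The broadly acting E2s UBE2D4, UBE2E1, UBE2E2 and UBE2E3 work with many RING ligases, and 0 of these 4 rose or fell without a block. UBE2E1 read 11.835, 12.01 and 12.19 under MASTL siRNA at 48 h, against 12.01, 12.125 and 12.34 in controls, a change of -0.14 (95% interval -0.38 to 0.09). UBE2E3 read 10.63, 10.79 and 11.03, against 10.69, 10.99 and 11.19, a change of -0.14 with adjusted p = 0.846 without a block and 0.0455 with the block within each time. Groups overlapped for both genes, and the spread within a group exceeded the change. With 1 array left out, the unblocked change of UBE2E3 ran from -0.27 (without control replicate 4) to -0.02 (without control replicate 1), and was -0.24 without MASTL siRNA replicate 1 and -0.04 without MASTL siRNA replicate 4. That of UBE2E1 ran from -0.235 (without MASTL siRNA replicate 1) to -0.055 (without control replicate 1). It was -0.22 without control replicate 4 and -0.06 without MASTL siRNA replicate 4. Within pairs at 48 h UBE2E1 varied less, with differences of -0.14, -0.12 and -0.175 for replicates 1, 3 and 4. The block within each time gave -0.14 at 48 h (SE 0.037, limma adjusted p = 0.0627), which was not called. Of the 4 other UBE2E3 probes past the filter, the changes at 48 h were -0.02, -0.12, -0.01 and 0.035, given from the brightest probe to the dimmest. At 24 h the sign was the opposite, with 0.04 for UBE2E3 and 0.07 for UBE2E1 without a block. The block within each time gave 0.19 for UBE2E3 (adjusted p = 0.0728) and 0.11 for UBE2E1 (adjusted p = 0.307) at 24 h. The difference between the times was called for neither gene, with or without a block. UBE2E2 gave 0.09 at 24 h and 0.10 at 48 h, and UBE2D4 0.03 and 0.02.

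Of the large and less studied E2s, UBE2O, which acts as both E2 and ligase, read 8.09 and 8.30 under MASTL siRNA at 24 h, against 8.09, 8.10 and 8.10 in controls. Its change of 0.10 (95% interval -0.09 to 0.29) rested on MASTL siRNA replicate 1, was -0.005 without it and 0.20 without MASTL siRNA replicate 3. UBE2H, the E2 of the CTLH ligase, gave -0.003 and -0.02, UBE2Q1 0.04 and 0.02, and UBE2Q2 0.04 and 0.13. Of the 4 measured genes in this group 0 rose or fell. UBE2D3-AS1 gave -0.05 and -0.08 at a mean signal of 7.59. Over the family, 10 tested members had 16 further probes past the filter of 2 arrays. At 24 h 8 of these, and at 48 h 9, changed with the opposite sign to the probe used. Some of the 16 averaged near the noise limit, among them those of UBE2V1 (7.368 to 7.425), with changes of 0.019 to 0.026 at 48 h. How often probes of other genes differ in sign was not computed.

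Time in culture was compared under control siRNA. At 48 h against 24 h, limma called 0 of 24 members and 0 of 22482 features (0.0%), and limma-trend called 1 feature, which was no member. At an unadjusted p under 0.05 there were 6 members, where 9.8% of features were. These were UBE2E3 (0.44, 95% interval 0.03 to 0.85), UBE2L6 (0.35, 95% interval 0.02 to 0.68), UBE2E1 (0.29), UBE2V1 (-0.09), UBE2G1 (-0.16) and UBE2J2 (-0.28), with adjusted p between 0.259 and 0.489. UBE2G2 gave 0.05 (95% interval -0.16 to 0.27). UBE2T read 9.45, 9.64 and 10.09 at 48 h and 9.88, 10.17 and 10.23 at 24 h, a difference of -0.37 (95% interval -0.80 to 0.07). With 1 block per replicate number over all arrays, 5 members were called, where 11.4% of features were. UBE2E3 (0.71, adjusted p = 0.000615), UBE2E1 (0.415, adjusted p = 0.0114) and UBE2L6 (0.53, adjusted p = 0.0186) were higher at 48 h, and UBE2T (-0.63, adjusted p = 0.0157) and UBE2V1 (-0.11, adjusted p = 0.0469) lower. Whether a number links arrays of different times was not tested.

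Genes that work before or after the UBE2 enzymes were listed by role. Of 7 measured E1 enzymes, 0 rose or fell at either time (medians 0.007 and -0.072). Of 9 ubiquitin and ubiquitin-like genes, 0 were called at either time. Both counts are near the shares of all features called, 0.881% at 24 h and 2.3% at 48 h. On average over both times 1 of 9, SUMO3, was called lower (-0.22, adjusted p = 0.0237), where 2.29% of features were. Of 8 E2s and E2 variants with other names, 1 fell at both times, where 0.645% of features were called lower at 24 h and 1.28% at 48 h. This was AKTIP, an E2 variant without the catalytic cysteine that takes part in vesicle traffic, which read 8.53 and 8.545 under MASTL siRNA at 24 h, against 9.28 to 9.43 in controls. It fell by 0.84 (SE 0.049, adjusted p = 0.000311) at 24 h and by 0.89 (SE 0.044, adjusted p = 8.16e-05) at 48 h, and its dimmer probe gave -0.23 and -0.33.

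Of 16 cullin-RING parts, 1 fell at both times, against the same shares of 0.645% and 1.28% of features. CUL5, the scaffold on which UBE2F acts, read 8.36 and 8.52 under MASTL siRNA at 24 h, against 9.21 to 9.45 in controls, and 8.63 to 8.80 against 9.41 to 9.47 at 48 h. It fell by 0.92 (SE 0.079, adjusted p = 0.00139) and by 0.73 (SE 0.071, adjusted p = 0.00179). The other 15 were not called, and the list's medians were 0.051 and 0.039.

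In the ERAD list, which holds the partners of UBE2G2, 0 of 19 measured genes rose at either time. This is near the shares of features called higher, 0.236% at 24 h and 1.02% at 48 h. At 48 h 1 of 19 fell, where 1.28% of features were called lower. DERL1, a membrane protein through which substrates leave the reticulum, read 9.15 to 9.31 under MASTL siRNA and 9.67 to 9.76 in controls at 48 h, and fell by 0.47 (SE 0.069, adjusted p = 0.0102). At 24 h it gave -0.40 (adjusted p = 0.0624). SYVN1, named as a known UBE2G2 partner and outside the rule for named genes, gave -0.07 and 0.04, and AUP1, which recruits UBE2G2 to the membrane, 0.08 and 0.07 (adjusted p from 0.678 to 0.934). The list's medians were -0.007 and -0.02. Of 42 other E3 ligases, 1 rose at 48 h, near the 1.02% of features called higher. It was the HECT ligase NEDD4, at 8.30 to 8.41 under MASTL siRNA against 8.01 to 8.13 in controls (change 0.29, SE 0.040, adjusted p = 0.00832). A dimmer NEDD4 probe gave 0.0 at 48 h, and 0 ligases were called at 24 h, where 0.881% of features were. On average over both times CBL (0.14), RNF31 (0.13) and NEDD4 (0.27) were higher, 3 of 42 where 2.28% of features were (limma adjusted p = 0.0237, 0.0143 and 0.00186 in that order). RMND5A (-0.13, adjusted p = 0.00948) was lower, 1 of 42 against 2.29%. Its probe averaged 7.51 and read 7.425 to 7.466 under MASTL siRNA, close to the noise limit, so RMND5A is weakly measured here.

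With the block within each time these lists also held more calls at 48 h, when 12.0% of features were called. The E1 enzymes UBA7 and UBA6 were lower, 2 of 7. Of the 8 E2s with other names CDC34 and ATG3 were higher and AKTIP and BIRC6 lower. Of the 19 ERAD genes EDEM1 was higher and DERL1, ERLEC1, FAF2 and UBXN4 lower. Of the 16 cullin-RING parts ELOB, RBX1, SKP2 and CUL2 were higher and CUL5 lower. Of the 42 other ligases NEDD4, NEDD4L and RNF8 were higher and RNF14, WWP1 and XIAP lower. At 24 h the block called 2.87% of features, 1.81% lower and 1.07% higher. Called lower were SUMO3 of the 9 ubiquitin and ubiquitin-like genes, AKTIP of 8, DERL1 of 19, CUL5 of 16 and RNF14 of 42. Called higher were EDEM1 of the 19 ERAD genes and NEDD4, UBE3A and RNF31 of the 42 other ligases.

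Promoter windows from RefSeq on GRCh38.p14, from 250 bases before to 50 after a start, were held for 21 of the 25 members, 28 windows in all. They were searched on both strands for GGGCGG (the GC box), CCGGAAG (a core bound by ETS factors), CCAAT and TATAAA. The GC box was in 75.0% of the members' windows and 45.0% of all 35116 windows, CCGGAAG in 25.0% and 10.3%, CCAAT in 21.4% and 34.6%, and TATAAA in 3.57% and 11.5%. The median window held 35.5 CG dinucleotides in members and 14 in all. These shares are descriptions without a test. The windows of UBE2G2, higher under MASTL siRNA, and of UBE2A, lower within every pair at 48 h, are shown 5′ to 3′ on the gene's strand as the member called without a block and the member of smallest p among those called lower only with the replicate block. Capitals mark GGGCGG or CCGGAAG on either strand: UBE2G2 (chr21:44801771-44802070, minus strand) holds CCGGAAG at 2 places and GGGCGG at 0, and UBE2A (chrX:119574313-119574612, plus strand) holds GGGCGG at 2 and CCGGAAG at 0.
UBE2G2: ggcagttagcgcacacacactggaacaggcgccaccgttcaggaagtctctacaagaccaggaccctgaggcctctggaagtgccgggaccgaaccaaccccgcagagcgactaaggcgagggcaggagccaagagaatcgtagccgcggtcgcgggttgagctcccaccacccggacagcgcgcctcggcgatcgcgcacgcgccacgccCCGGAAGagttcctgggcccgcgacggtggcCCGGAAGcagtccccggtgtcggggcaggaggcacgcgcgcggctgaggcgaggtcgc
UBE2A: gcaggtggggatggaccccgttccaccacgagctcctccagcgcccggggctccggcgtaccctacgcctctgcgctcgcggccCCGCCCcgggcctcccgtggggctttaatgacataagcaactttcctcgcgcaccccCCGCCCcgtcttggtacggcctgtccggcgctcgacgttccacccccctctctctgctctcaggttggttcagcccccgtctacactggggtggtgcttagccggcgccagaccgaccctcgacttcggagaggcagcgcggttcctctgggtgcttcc
A match to letters is no evidence of binding, and no protein was measured at these sites.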

How the data were processed

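RNA was amplified, biotin-labelled and read on bead arrays, per the labels' protocols. The deposited values are log2 signals normalized between arrays by the authors, 47321 probes on each of 11 arrays. The log2 scale was read from the range, 7.2365 to 14.5122, and sorted values differed between arrays by at most 0.000698. The submitters' processing notes name lumi, with no version or role. A table of 22 non-normalized signal and detection columns was not used, because its column names match no sample label. No depth applies to arrays, and their number limits precision.

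The noise limit was the 95th percentile of values below the mode (7.3555, histogram bins of 0.002) mirrored about it. Probes above it on at least 2 arrays were kept (27736). One probe of highest mean stood for a gene, giving 22482 features. Group means were estimated in limma 3.58.1 (R 4.3.3, functions lmFit and eBayes, 7 residual and 1.66 prior degrees of freedom), after the code was tested on simulated data. Fits with a replicate block left fewer residual degrees of freedom. Of 5 contrasts, 2 set MASTL siRNA against controls at each time, others took the mean of these and their difference, and the last set 48 h controls against 24 h controls. A call was a Benjamini-Hochberg adjusted p under 0.05 over all features, two-sided. Intervals are 95% from the same fit. Figures were drawn with matplotlib 3.10.9.

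Replicate numbers were taken to pair the arrays within a time, from correlated deviations in the values (over 0.1 in each of 5 pairs, 0.104 in the weakest) and not from the labels. The members and the lists were chosen with earlier results of these data known. Every member could be named; array values were given for UBE2G2, for called members and for the member of smallest p in each role group, and from other lists up to 4 called genes each. Alternatives changed the filter, normalization, probe choice, moderation, arrays fitted and replicate block, and left out each array.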

Additional observations from a re-analysis of the deposited data

How the results depend on the processing

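Each count of called members and each UBE2G2 change was recomputed under 22 alternatives where they applied. Without a filter, with a stricter one, with cyclic loess, each probe separate, probes averaged or limma-trend, UBE2G2 was the 1 member called at 24 h, at 48 h and on average. Fitting the 24 h arrays alone gave 0 called members, with UBE2G2 unchanged at 0.722 (adjusted p = 0.173). Fitting the 48 h arrays alone kept the UBE2G2 call (0.586, adjusted p = 0.0224). The SD of UBE2G2 was 0.18 and 0.16 in the MASTL siRNA and control groups at 24 h, and 0.039 and 0.12 at 48 h. Averaging the probes lowered UBE2G2 to 0.364 and 0.285. With each array left out in turn, the count of called members ran from 0 to 1 at 24 h, 0 to 1 at 48 h and 1 to 2 on average, the 2 being UBE2G2 and UBE2V2 without 24 h control replicate 2. UBE2G2 ran from 0.592 to 0.853 at 24 h and from 0.519 to 0.63 at 48 h. Where a group was left with 1 array, that array was assumed to vary like the others. With the replicate block within each time, 2 members were called at 24 h (UBE2G2 and UBE2L6, -0.293; 2.87% of features), 6 at 48 h and 6 on average (13.2% of features), UBE2T among them on average and UBE2E3 at 48 h. With the replicate block over all arrays, 2 were called at 48 h, 3 on average (UBE2G2, UBE2A and UBE2V2; 9.98% of features) and 5 for time under control siRNA (UBE2E1, UBE2E3, UBE2L6, UBE2T and UBE2V1; 11.4% of features). Whether numbers pair arrays of different times was not settled. The block within each time cannot give the comparison of times. UBE2O at 24 h turned to -0.005 without MASTL siRNA replicate 1 and was at most 0.201. The cause of these shifts was not tested. Probes near the noise limit, such as those of UBE2B and UBE2R2, limit what could be seen.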
